A study of Homo sapiens with 4 samples.

Results

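The genes described here are the SR proteins and the heterogeneous nuclear ribonucleoproteins (hnRNPs), the main families of RNA-binding proteins that steer splice site choice. Members were taken by symbol: 12 protein-coding genes named SRSF plus a number and 27 protein-coding genes whose symbol starts with HNRNP, 39 of the 64252 gene identifiers in the count table. RNA was sequenced from cells carrying a short hairpin RNA against ELOVL5, a fatty acid elongase (shELOVL5, 2 libraries), and from cells carrying a control hairpin (shNC, 2 libraries). Both groups are J.gamma1, a subline of the Jurkat T cell acute lymphoblastic leukaemia line without functional PLCG1, so every library shares that loss and a single line stands for the disease. The labels do not say whether the libraries of a group came from separate cultures, and the p-values therefore measure the spread between these libraries, which may be technical. ELOVL5 itself was at 71.8 and 70.02 CPM in the shELOVL5 libraries, against 342 and 353 CPM in the shNC libraries (log2 fold change -2.29, adjusted p = 1.79e-09). CPM are counts scaled to library size.

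SR proteins carry an RNA recognition motif and a tail of alternating arginine and serine. They bind exonic enhancers, help the spliceosome to define exons, and several of them also accompany mRNA out of the nucleus. Kinases of the SRPK and CLK families phosphorylate the tail, which controls where the proteins sit in the cell. hnRNPs coat nascent transcripts through RNA recognition or KH domains and often oppose exon inclusion, although the effect depends on where they bind. Members of both families are known to limit their own level by splicing their transcripts into forms that nonsense-mediated decay removes. In T cells, members of both families take part in alternative splicing of the CD45 gene PTPRC.

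The libraries held 16254002 to 17338719 counts, of which the SRSF genes took 0.308% and 0.299% in shELOVL5 and 0.348% and 0.334% in shNC. The HNRNP genes took 0.992% and 0.995% in shELOVL5, against 1.01% and 0.980% in shNC. Over all 17461 genes tested with edgeR, 3562 or 20.4% passed an adjusted p of 0.05, with 1610 (9.22%) higher and 1952 (11.2%) lower in shELOVL5. Without shELOVL5 replicate 1 these counts were 696 and 1176, and without shELOVL5 replicate 2 they were 795 and 1178. All 12 T cell markers passed the low-count filter, 4 of them higher and 4 lower in shELOVL5, with CD2 at no more than 3.59 CPM. CD3E was higher, at 516 and 488 CPM in shELOVL5 and 399.6 and 404 CPM in shNC, and CD3D was lower, at 166 and 165 CPM in shELOVL5 and 206 and 191 CPM in shNC. The 7 B cell markers summed to 41.9 and 39.3 CPM in shELOVL5 and to 62.4 and 54.96 CPM in shNC, and CD79A among them was lower in shELOVL5 (log2 fold change -0.65). The 9 myeloid and 8 erythroid markers each summed to at most 1.68 CPM in any library. The 11 epithelial or fibroblast markers, of which 7 had no count at all, summed to 11.3 to 13.01 CPM, and the part of any of these genes in the results below was not tested.

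The SRSF genes were lower in shELOVL5 more often than they were higher. Of the 11 tested, 6 passed the edgeR test as lower (SRSF1, SRSF2, SRSF3, SRSF4, SRSF6 and SRSF7) and 0 as higher, beside 11.2% lower and 9.22% higher over all tested genes. Those shares were not matched for level, since the low-count filter used a minimum count of 10. The 11 SRSF genes held between 1040 and 10213 counts in each library. Their median log2 fold change was -0.17, beside 0.0062 for all tested genes, and 8 of the 11 were negative. In 8 of the 11 both shELOVL5 libraries lay below both shNC libraries, which held for 30.1% of all tested genes. In 2 of them, SRSF8 and SRSF9, both shELOVL5 libraries lay above both shNC libraries, which held for 30.0% of all tested genes. The count of 0 higher became 1 with DESeq2, with limma-voom, with a non-robust fit and with the replicate number as a block, and that gene was SRSF9 each time. It was 2 without shNC replicate 1 (SRSF5 and SRSF9) and 1 without shNC replicate 2 (SRSF9). By an unadjusted p under 0.05 it was 2, SRSF8 and SRSF9. The count of lower genes lay between 4 and 6 when any single library was left out. In bulk RNA, fewer cells expressing a gene and less of its RNA per cell cannot be told apart.

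The HNRNP genes were split. Of the 23 tested, 3 rose in shELOVL5 (HNRNPH2, HNRNPH3 and HNRNPUL2), or 13.0%, beside 9.22% of all tested genes. Another 5 fell (HNRNPA0, HNRNPA1, HNRNPC, HNRNPF and HNRNPUL1), or 21.7%, beside 11.2% of all tested genes. The remaining 15 did not pass, whereas 20.4% of all tested genes were called in either direction. These shares over all tested genes were not matched for level. The median log2 fold change of the 23 HNRNP genes was -0.05. Both shELOVL5 libraries lay below both shNC libraries in 11 of them and above in 7, beside 30.1% and 30.0% of all tested genes, and in 5 the groups overlapped. The split depended on scaling. With libraries scaled to total counts only, 6 HNRNP genes were higher and 2 lower. HNRNPA2B1, HNRNPM and HNRNPU then also passed as higher, while HNRNPA1, HNRNPC and HNRNPUL1 did not pass. The balance over all tested genes turned as well, to 1933 higher and 1674 lower from 1610 and 1952. With shELOVL5 replicate 1 left out, 1 HNRNP gene was higher and 2 were lower; with shELOVL5 replicate 2 left out it was 2 and 1, and with shNC replicate 2 left out 1 and 7. Whether the SRSF and HNRNP families differ from each other was not tested.

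**Figure D1:**
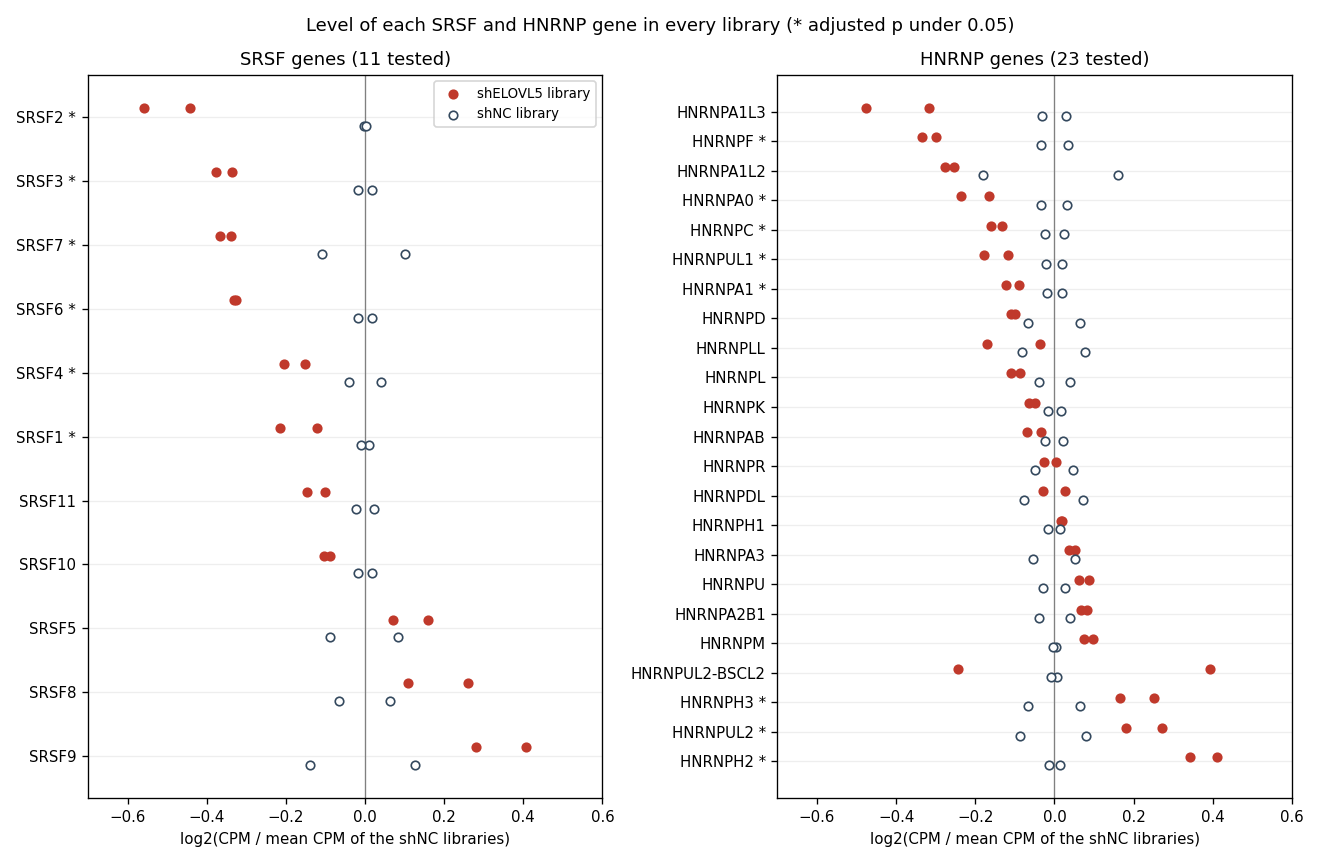
Level of the 11 tested SRSF genes (left) and 23 tested HNRNP genes (right) in every library, as the log2 ratio to the mean CPM of the 2 shNC libraries, with shELOVL5 libraries as filled points and shNC libraries as open points. Asterisks mark edgeR adjusted p under 0.05; SRSF2, SRSF3, SRSF6 and SRSF7 lie farthest to the left among the SRSF genes, and HNRNPF among the called HNRNP genes.

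SRSF2, also known as SC35, is a nuclear SR protein that marks nuclear speckles. Over its whole coding sequence it has 23.5 pairs of adjacent arginine and serine codons per 100 codons, the most of the members counted, and SRSF9 has the fewest among the SRSF genes, with 4.07. The coding stretches below, each 90 bases of the GENCODE 29 transcript sequence on the coding strand, show that contrast. Capitals mark codons that belong to an arginine-serine or serine-arginine pair, 23 pairs in codons 127 to 156 of SRSF2 and 7 pairs in codons 171 to 200 of SRSF9.
SRSF2: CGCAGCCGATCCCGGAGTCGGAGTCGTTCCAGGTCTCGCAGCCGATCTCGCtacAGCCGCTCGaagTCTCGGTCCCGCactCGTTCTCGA
SRSF9: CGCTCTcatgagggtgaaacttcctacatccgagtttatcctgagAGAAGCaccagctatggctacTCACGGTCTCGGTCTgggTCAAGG
The median over the 12 SRSF genes was 17.6 such pairs per 100 codons, against 1.02 over the HNRNP genes and 0.759 over 19287 protein-coding genes. The hnRNPs were instead rich in glycine, with a median of 12.9% of codons against 6.38% over those protein-coding genes; many of them are known for glycine-rich regions.

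SRSF2 lies at chr17:76734115-76737374 on the minus strand of GRCh38. It had the log2 fold change farthest from 0 among the SRSF genes tested. It stood at 443 and 409 CPM in the shELOVL5 libraries, against 601 and 604 CPM in the shNC libraries. The groups were far apart relative to their spread, with a log2 fold change of -0.50 (SE 0.04, edgeR adjusted p = 3.06e-05). Its share of all SRSF counts was 14.5% and 13.9% in shELOVL5, against 17.01% and 17.9% in shNC. SRSF2 shares 1106 bases, 36.7% of its exons, with MFSD11, a transporter-like gene on the opposite strand, and the sources used here do not say whether counting used strand. MFSD11 was at 286 and 322 CPM in shELOVL5 and at 202 and 252 CPM in shNC, opposite in direction but not past the threshold (log2 fold change 0.42, adjusted p = 0.169). Summed, SRSF2 and MFSD11 were still lower, with a log2 fold change of -0.18 (adjusted p = 0.0072). Without strand, reads of SRSF2 and of MFSD11 in the shared bases cannot be told apart.

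SRSF9 lies at chr12:120461668-120469793 on the minus strand of GRCh38 with GATC, a subunit of the mitochondrial glutamyl-tRNA amidotransferase, on the opposite strand. The exons of SRSF9 and GATC share 1729 bases, 46.2% of those of SRSF9. SRSF9 was at 299 and 274 CPM in shELOVL5, against 246 and 204 CPM in shNC, and both shELOVL5 libraries were above both shNC libraries. Its log2 fold change of 0.35 (SE 0.10) did not pass in edgeR, with an adjusted p of 0.0872. The call varied with the method: adjusted p was 4.13e-04 with DESeq2, 0.027 with limma-voom, 0.0335 with a non-robust fit and 9.52e-04 with the replicate block. SRSF9 did not pass with RLE size factors (adjusted p = 0.0842) or total counts only (0.0584). Nor did it pass with no low-count filter (0.0857) or with 1 CPM in 2 libraries (0.0858). The log2 fold change of SRSF9 was 0.48 without shNC replicate 1 and 0.21 without shNC replicate 2. It was 0.27 without shELOVL5 replicate 1 and 0.41 without shELOVL5 replicate 2. GATC was at 67.5 and 106 CPM in shELOVL5, against 143 and 159 CPM in shNC, and did not pass (log2 fold change -0.80, SE 0.30, edgeR adjusted p = 0.239). Without strand, reads of SRSF9 and of GATC in the shared bases cannot be told apart. The summed counts of SRSF9 and GATC were 6396 and 6275 in shELOVL5 and 6610 and 5839 in shNC, so that the groups overlapped, with a log2 fold change of -0.014 (adjusted p = 0.871).

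**Figure D2:**
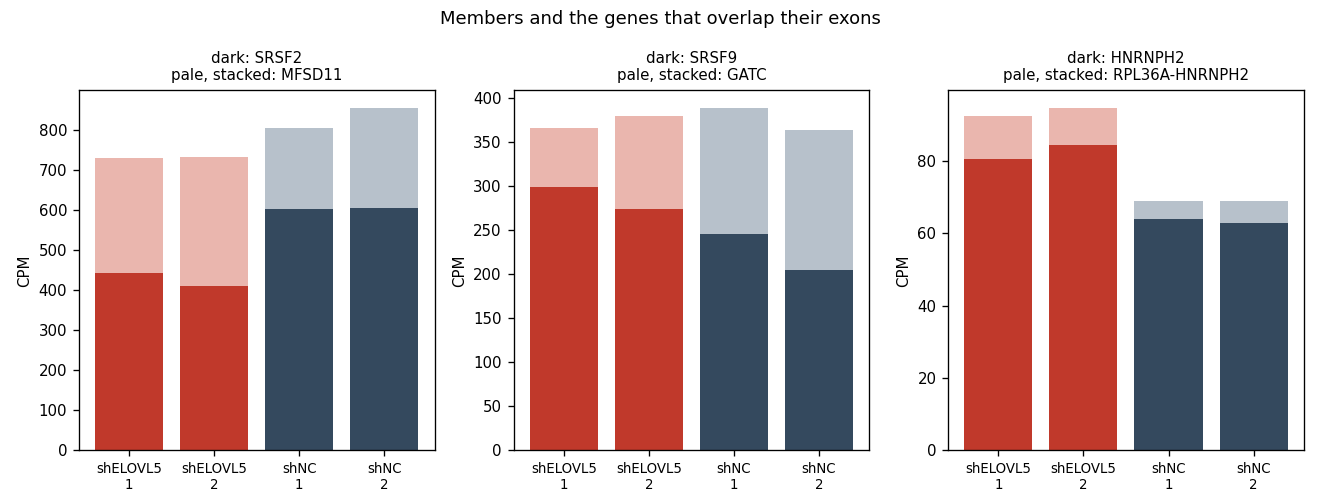
CPM per library of SRSF2, SRSF9 and HNRNPH2 (dark) with an overlapping gene stacked on top (pale), shELOVL5 libraries in red and shNC libraries in blue-grey, with y axes from 0. The stacked heights of SRSF9 and GATC are alike in both groups, those of SRSF2 and MFSD11 are lower in shELOVL5, and those of HNRNPH2 and RPL36A-HNRNPH2 are higher in shELOVL5.

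SRSF3, SRSF6 and SRSF7 also fell. SRSF3 and SRSF7 are small, closely related SR proteins that act as adaptors for mRNA export and influence polyadenylation site choice. SRSF6 has a pair of RNA recognition motifs and a long arginine-serine tail. The first-listed RefSeq promoters (GRCh38.p14, 250 bases before to 50 after the start, on the gene's strand) of the called members with a log2 change of at least 0.3 in either direction are shown here so that the members that moved most can be set side by side. SRSF3 is at chr6:36594112-36594411 on the plus strand, SRSF6 at chr20:43457646-43457945 on the plus strand, SRSF7 at chr2:38751445-38751744 on the minus strand, HNRNPF at chr10:43408808-43409107 on the minus strand and HNRNPH2 at chrX:101407972-101408271 on the plus strand. Capitals mark a TATA box, CCAAT box, GC box or E-box.
SRSF3: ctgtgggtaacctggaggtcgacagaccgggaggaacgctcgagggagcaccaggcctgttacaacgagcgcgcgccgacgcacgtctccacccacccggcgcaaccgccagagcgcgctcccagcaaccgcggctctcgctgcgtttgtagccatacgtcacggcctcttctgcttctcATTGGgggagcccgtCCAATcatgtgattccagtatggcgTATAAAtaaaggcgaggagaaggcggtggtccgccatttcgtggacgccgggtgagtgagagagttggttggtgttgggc
SRSF6: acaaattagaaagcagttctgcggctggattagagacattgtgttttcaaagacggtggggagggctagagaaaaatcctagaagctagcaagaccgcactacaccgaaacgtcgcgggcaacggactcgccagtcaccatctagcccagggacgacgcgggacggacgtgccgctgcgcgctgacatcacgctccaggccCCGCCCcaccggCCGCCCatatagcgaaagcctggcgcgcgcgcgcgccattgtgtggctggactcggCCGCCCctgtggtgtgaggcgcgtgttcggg
SRSF7: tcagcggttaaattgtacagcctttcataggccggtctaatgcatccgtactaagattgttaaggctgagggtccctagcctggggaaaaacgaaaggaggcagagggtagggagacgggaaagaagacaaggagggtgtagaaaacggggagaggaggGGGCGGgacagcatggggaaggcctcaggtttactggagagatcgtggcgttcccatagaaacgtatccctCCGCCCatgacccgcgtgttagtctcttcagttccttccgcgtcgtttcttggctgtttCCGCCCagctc
HNRNPF: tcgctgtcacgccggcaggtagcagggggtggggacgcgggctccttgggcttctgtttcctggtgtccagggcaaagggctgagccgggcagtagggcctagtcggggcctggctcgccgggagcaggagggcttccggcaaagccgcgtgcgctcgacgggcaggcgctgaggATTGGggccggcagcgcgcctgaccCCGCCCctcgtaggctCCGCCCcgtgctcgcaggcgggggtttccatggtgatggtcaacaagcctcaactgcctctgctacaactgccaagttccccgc
HNRNPH2: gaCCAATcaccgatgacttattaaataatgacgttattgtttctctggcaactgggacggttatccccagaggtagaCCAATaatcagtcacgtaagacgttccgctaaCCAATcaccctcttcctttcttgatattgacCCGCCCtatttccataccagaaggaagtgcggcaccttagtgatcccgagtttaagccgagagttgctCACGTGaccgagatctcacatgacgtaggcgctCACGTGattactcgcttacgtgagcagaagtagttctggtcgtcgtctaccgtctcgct
Of the 39 members, 35 matched the promoter table, 11 SRSF and 24 HNRNP, and SRSF2 was not among them. The letters CCAAT, or ATTGG on the other strand, occurred in 2 of the 11 SRSF and 16 of the 24 HNRNP promoters, beside 34.6% of all 35116 promoters in the table. GGGCGG or CCGCCC, the GC box, occurred in 5 SRSF and 17 HNRNP promoters, beside 45.0% of all. CACGTG, the E-box, occurred in 0 SRSF and 7 HNRNP promoters, beside 7.26%, and TATAAA or TTTATA in 2 and 3, beside 11.5%. The cyclic AMP response element TGACGTCA occurred in 0 of both, beside 1.85%, and the ETS site CCGGAAGT or ACTTCCGG in 2 and 1, beside 4.14%. These are matches of letters and say nothing about binding. Members count once each, by the first-listed promoter, whereas the 35116 were not reduced to a single promoter per gene. The HNRNP promoters include those of HNRNPUL2 and of its readthrough HNRNPUL2-BSCL2, which both hold the CCAAT and GC box letters.

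SRSF3 was at 459.7 and 447 CPM in the shELOVL5 libraries and at 587 and 573 CPM in the shNC libraries. SRSF6 was at 358 and 359 CPM in shELOVL5, against 456 and 444 CPM in shNC. SRSF7 was at 140.1 and 143 CPM in shELOVL5, against 194 and 168 CPM in shNC. In all of them the shELOVL5 libraries lay close together below both shNC libraries. The log2 fold change was -0.36 for SRSF3 (SE 0.04, edgeR adjusted p = 1.06e-04), -0.33 for SRSF6 (SE 0.04, adjusted p = 2.12e-04) and -0.35 for SRSF7 (SE 0.07, adjusted p = 0.00536). SRSF3 and SRSF6 passed under each of the 13 alternative settings, as SRSF2 did. The setting that summed members with genes sharing their exons left the counts of SRSF3 and SRSF6 unchanged. For SRSF2 it tested the sum with MFSD11. SRSF7 missed the threshold when shELOVL5 replicate 1 was left out, with a log2 fold change of -0.35 and an adjusted p of 0.0556.

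SRSF1 and SRSF4 fell by less. SRSF1, also known as ASF/SF2, is the prototype SR protein, shuttles between nucleus and cytoplasm and is a known proto-oncogene product. It was at 446 and 418 CPM in shELOVL5 and at 489 and 482 CPM in shNC (log2 fold change -0.17, SE 0.04, edgeR adjusted p = 0.0181). SRSF1 shares 1890 bases with a same-strand gene that held 4 and 3 counts in shELOVL5 and 5 and 2 in shNC. It shares 440 bases with an opposite-strand gene without a symbol, at 9.96 and 34.1 CPM in shELOVL5 and 27.2 and 8.97 CPM in shNC. Summed with the latter, SRSF1 had a log2 fold change of -0.15 (edgeR adjusted p = 0.024). SRSF4 was at 133 and 128 CPM in shELOVL5, against 152 and 144 CPM in shNC (log2 fold change -0.18, SE 0.06, adjusted p = 0.0434). The groups did not overlap for SRSF1 or SRSF4, but leaving out a library ended the calls. Without shELOVL5 replicate 2 the adjusted p of SRSF1 was 0.172. For SRSF4 it was 0.104 without shELOVL5 replicate 1, 0.228 without shELOVL5 replicate 2 and 0.178 without shNC replicate 1, and 8 of 13 settings ended its call.

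The other SRSF genes did not pass. SRSF10, which can act as a splicing repressor when dephosphorylated, was at 209 and 211 CPM in shELOVL5, against 227 and 221 CPM in shNC (adjusted p = 0.159). SRSF11 was at 262 and 254 CPM in shELOVL5, against 286 and 277 CPM in shNC (adjusted p = 0.0737). Both had separate groups with small differences, of -0.10 and -0.12 on the log2 scale. SRSF5 was at 238 and 224 CPM in shELOVL5 and 226 and 200.4 CPM in shNC, with overlapping groups (adjusted p = 0.231, and 0.0305 without shNC replicate 1). SRSF8, a close relative of SRSF2, was at 73.1 and 81.2 CPM in shELOVL5, against 70.8 and 64.8 CPM in shNC (log2 fold change 0.18, adjusted p = 0.143). SRSF12 had 0 and 5 counts in shELOVL5 and 0 in both shNC libraries and was too low to test; a count of 0 allows up to 3 counts, or 0.172 to 0.187 CPM per library.

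Among the HNRNP genes that passed the test, HNRNPH2 and HNRNPF had the log2 fold changes farthest from 0. HNRNPF, HNRNPH1, HNRNPH2 and HNRNPH3 encode related proteins that bind runs of guanine. HNRNPF was at 345 and 354 CPM in shELOVL5, against 425 and 446 CPM in shNC, and its groups were well apart (log2 fold change -0.32, SE 0.04, edgeR adjusted p = 4.49e-04). HNRNPH2 on the X chromosome was at 80.6 and 84.4 CPM in shELOVL5, against 64.1 and 62.9 CPM in shNC, and was higher in both shELOVL5 libraries (log2 fold change 0.38, SE 0.07, adjusted p = 0.00383). HNRNPH3 was at 226 and 240.4 CPM in shELOVL5, against 211 and 193 CPM in shNC (log2 fold change 0.21, SE 0.06, adjusted p = 0.0234). HNRNPH1 was at 534 and 533 CPM in shELOVL5 and at 532 and 521 CPM in shNC, a log2 difference of 0.02 (adjusted p = 0.789). HNRNPF and HNRNPH2 passed under all 13 alternative settings. The setting that summed members with genes sharing their exons left the counts of HNRNPF unchanged. HNRNPH3 missed the threshold without shELOVL5 replicate 1 (adjusted p = 0.0632), shELOVL5 replicate 2 (0.183) and shNC replicate 2 (0.134).

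HNRNPH2 and HNRNPH3 also share exonic bases with other genes, and how reads in those bases were assigned is not known. HNRNPH2 shares 362 bases with the readthrough gene RPL36A-HNRNPH2 on its own strand, which was at 11.8 and 10.4 CPM in shELOVL5 and 4.83 and 5.98 CPM in shNC (log2 fold change 1.04, adjusted p = 0.00894). The sum of HNRNPH2 and RPL36A-HNRNPH2 was higher in shELOVL5 by 0.44 on the log2 scale (adjusted p = 9.22e-04). HNRNPH3 shares 115 bases with RUFY2 on the opposite strand, which was also higher, at 22.5 and 22.998 CPM in shELOVL5 and 12.4 and 13.6 CPM in shNC. Count ratios of HNRNPF and HNRNPH2 to HNRNPH1 were separate between the groups. They restate the changes of these genes given above and were not tested. The count ratio of HNRNPF to HNRNPH1, which needs no scaling between libraries, was 0.647 and 0.665 in shELOVL5, against 0.798 and 0.855 in shNC. The ratio of HNRNPH2 to HNRNPH1 was 0.151 and 0.158 in shELOVL5 and 0.120 and 0.121 in shNC.

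The A/B group, named for the abundant core proteins of hnRNP particles, showed small differences. HNRNPA1, a repressor of exon inclusion, was at 995 and 973 CPM in shELOVL5, against 1072 and 1045 CPM in shNC, and its log2 fold change of -0.11 (SE 0.03) was just inside the threshold, with an edgeR adjusted p of 0.04998. That call was lost under 7 of 13 settings, among them the exclusion of shELOVL5 replicate 1 (adjusted p = 0.125), shELOVL5 replicate 2 (0.274) or shNC replicate 1 (0.0968). HNRNPA0 was at 418 and 398 CPM in shELOVL5, against 480.0 and 459 CPM in shNC (log2 fold change -0.20, SE 0.04, adjusted p = 0.00769). It passed under 12 of 13 settings and missed without shELOVL5 replicate 2, when the adjusted p was 0.0866. HNRNPA2B1, a reader of RNA motifs and modifications, was at 1085 and 1097 CPM in shELOVL5, against 1063 and 1008 CPM in shNC, and did not pass (log2 fold change 0.08, adjusted p = 0.178), although it did without shNC replicate 1 (0.0371). HNRNPA2B1 shares 368 bases with CBX3 on the opposite strand, which was lower, at 135 and 129.8 CPM in shELOVL5, against 175 and 171 CPM in shNC (log2 fold change -0.39), and summed with it HNRNPA2B1 had a log2 fold change of 0.02. HNRNPA3 overlapped between groups, at 452 and 456 CPM in shELOVL5 and 457 and 424 CPM in shNC.

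In count ratios, HNRNPA1 to HNRNPA2B1 stood at 0.917 and 0.887 in shELOVL5, against 1.01 and 1.04 in shNC. The ratio of HNRNPA0 to HNRNPA3 was 0.926 and 0.873 in shELOVL5, against 1.05 and 1.08 in shNC. In both ratios the groups were separate. HNRNPAB was at 307 and 300.0 CPM in shELOVL5 and at 309.7 and 319.7 CPM in shNC (adjusted p = 0.443). The HNRNPA1-like genes HNRNPA1L2 and HNRNPA1L3 were low, at 11.6 to 15.7 CPM in shELOVL5 and 15.8 to 20.9 CPM in shNC, and neither passed (adjusted p = 0.293 for HNRNPA1L2 and 0.124 for HNRNPA1L3). Near-identical copies make the low values uncertain: 74 identifiers annotated as HNRNPA1 pseudogenes held 964 and 852 counts in shELOVL5 and 869 and 846 in shNC, at most 5.54% of the counts of HNRNPA1 in a library.

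HNRNPC forms tetramers that bind uridine tracts and measure nascent RNA, and HNRNPU, also known as SAF-A, and its relatives HNRNPUL1 and HNRNPUL2 bind both RNA and chromatin. HNRNPC was at 566 and 578 CPM in shELOVL5, against 644 and 623 CPM in shNC (log2 fold change -0.15, SE 0.04, edgeR adjusted p = 0.018). HNRNPUL1 was at 683 and 712 CPM in shELOVL5, against 761 and 783 CPM in shNC (log2 fold change -0.15, SE 0.04, adjusted p = 0.0191). Neither gene's groups overlapped, and both differences were about as large as those of HNRNPA1 and SRSF1. HNRNPC did not pass without shELOVL5 replicate 1 (adjusted p = 0.126) or shELOVL5 replicate 2 (0.0756), nor did HNRNPUL1 (0.157 and 0.0508). Summed with TGFB1, which shares 215 bases on the opposite strand, HNRNPUL1 had a log2 fold change of -0.09 and did not pass (adjusted p = 0.104). The genes HNRNPCL1, HNRNPCL2, HNRNPCL3 and HNRNPCL4 had 0 counts in every library, which allows up to 3 counts in each.

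HNRNPUL2 was higher, at 179 and 190.3 CPM in shELOVL5, against 167 and 149 CPM in shNC (log2 fold change 0.23, SE 0.06, edgeR adjusted p = 0.0287). It did not pass without shELOVL5 replicate 1 (adjusted p = 0.0744), shELOVL5 replicate 2 (0.201) or shNC replicate 2 (0.164). HNRNPUL2-BSCL2, a readthrough gene that GENCODE 29 types as protein-coding and RefSeq as a long non-coding RNA, shares 2391 bases with HNRNPUL2 on the same strand. Its libraries disagreed, at 106 and 67.9 CPM in shELOVL5 and 80.9 and 80.01 CPM in shNC, and its direction turned with the library left out, at -0.25 without shELOVL5 replicate 1 and 0.39 without shELOVL5 replicate 2 on the log2 scale. The sum of HNRNPUL2, HNRNPUL2-BSCL2 and BSCL2 was steadier, at 306 and 299 CPM in shELOVL5, against 274 and 267 CPM in shNC (log2 fold change 0.16, adjusted p = 0.0188). HNRNPU was at 817 and 802 CPM in shELOVL5, against 783 and 754 CPM in shNC, with separate groups but no call (log2 fold change 0.07, adjusted p = 0.182). COX20, which shares 3502 bases with HNRNPU on the opposite strand, was at 21.4 and 22.6 CPM in shELOVL5, against 8.54 and 12.8 CPM in shNC (log2 fold change 1.05, adjusted p = 0.00378), and the sum of COX20 and HNRNPU had a log2 fold change of 0.09 (adjusted p = 0.0895).

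The remaining hnRNPs did not pass the test. HNRNPK, a KH-domain protein, was at 780.4 and 772 CPM in shELOVL5, against 815 and 798 CPM in shNC (adjusted p = 0.295). HNRNPM was at 523 and 531 CPM in shELOVL5, against 498 and 495 CPM in shNC (adjusted p = 0.126). HNRNPD, also known as AUF1 and a regulator of mRNA decay, was at 554 and 550.2 CPM in shELOVL5, against 621 and 567 CPM in shNC, and passed only when shNC replicate 2 was left out (adjusted p = 0.139 with it and 0.00855 without it). HNRNPL, a repressor of CD45 exons in T cells, behaved likewise, at 575 and 565 CPM in shELOVL5, against 627 and 593 CPM in shNC (adjusted p = 0.11, and 0.0249 without shNC replicate 2). In these 4 genes the groups were separate. HNRNPLL, which regulates CD45 splicing in activated T cells, was at 55.5 and 50.6 CPM in shELOVL5 and 53.9 and 60.1 CPM in shNC. HNRNPR was at 305 and 299 CPM in shELOVL5 and 315 and 294 CPM in shNC, and HNRNPDL at 229 and 238 CPM in shELOVL5 and 246 and 222 CPM in shNC. The groups of HNRNPLL, HNRNPR and HNRNPDL overlapped.

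Set against exon length, members of the families were interleaved. HNRNPA1 had the highest level per kb of annotated exon, with 193 CPM per kb in shELOVL5 and 208 CPM per kb in shNC (means). SRSF2 was next in shNC at 199.7 CPM per kb, and in shELOVL5 it was at 141 CPM per kb, below HNRNPK at 152 and beside HNRNPAB at 142. SRSF6 was rank 13 in shELOVL5 and rank 9 in shNC, while HNRNPA2B1 was rank 6 in shELOVL5 and rank 8 in shNC. SRSF1, at 129 CPM per kb in shELOVL5 and 145 CPM per kb in shNC, was rank 5 in both. The order depends on the length used: by the longest coding transcript HNRNPA2B1 was first, with 298 CPM per kb in shELOVL5 and 283 CPM per kb in shNC.

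**Figure D3:**
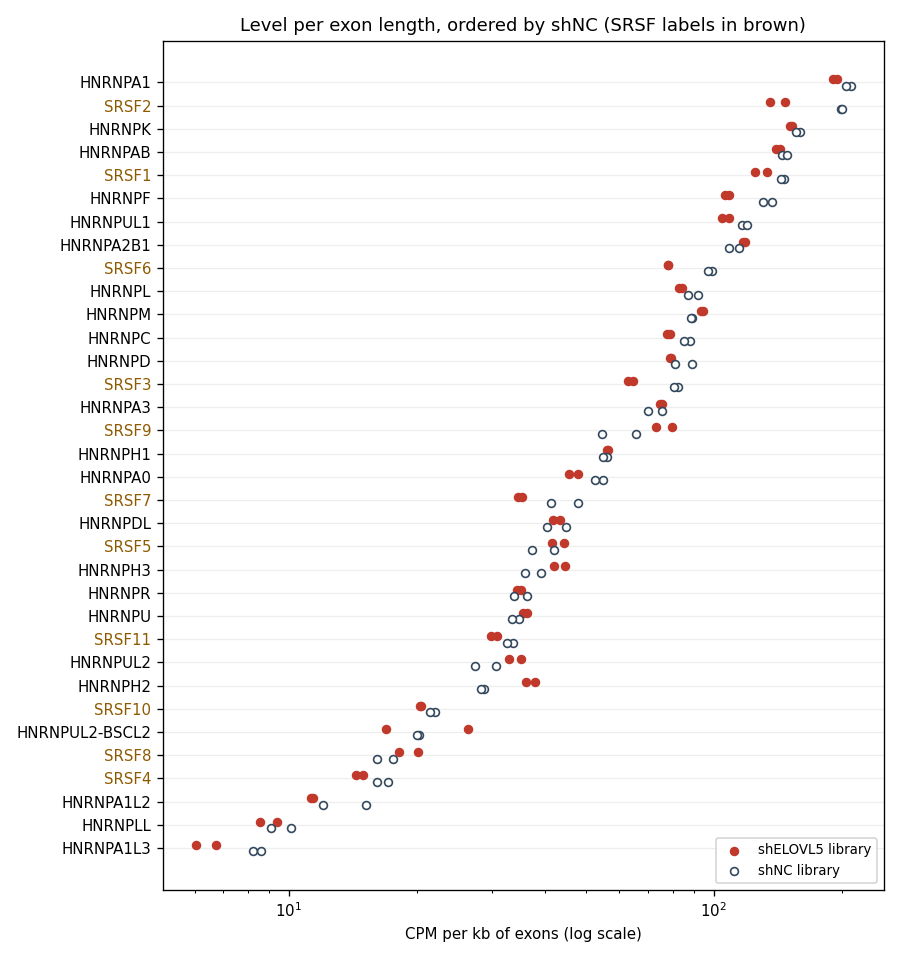
Level of the 34 tested members per kb of annotated exon in every library (log scale), ordered by the shNC mean, with shELOVL5 libraries as filled and shNC libraries as open points and SRSF names in brown. HNRNPA1 is at the top with 193 CPM per kb in shELOVL5 and 208 in shNC, and HNRNPA1L3 at the bottom with 6.40 in shELOVL5 and 8.41 in shNC.

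Summed over each family, the SRSF genes came to 3061 and 2949 CPM in shELOVL5, against 3535 and 3382 CPM in shNC, a ratio of 0.869 that is described without a test. The HNRNP genes summed to 9845 and 9820 CPM in shELOVL5, against 10261 and 9928 CPM in shNC, a ratio of 0.974 that became 0.998 when libraries were scaled to total counts only. Within the SRSF sum, SRSF9 took 9.75% and 9.28% in shELOVL5, against 6.96% and 6.05% in shNC, and SRSF5 took 7.77% and 7.58% in shELOVL5, against 6.38% and 5.93% in shNC. The count ratio of SRSF6 to SRSF5 was 1.51 and 1.61 in shELOVL5, against 2.02 and 2.22 in shNC. That of SRSF2 to SRSF8 was 6.06 and 5.04 in shELOVL5, against 8.49 and 9.32 in shNC. Neither this ratio nor the SRSF9 share allows for the exons shared with MFSD11 and with GATC. Summed with GATC, SRSF9 had a log2 fold change of -0.014. SRSF3 and SRSF7, which both fell, had overlapping ratios of 3.28 and 3.13 in shELOVL5 and 3.03 and 3.42 in shNC. All 12 SRSF genes and 14 of the 27 HNRNP genes have an annotated transcript of the nonsense-mediated decay type, beside 35.7% of protein-coding genes; gene-level counts do not separate these from coding transcripts.

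Other genes of the splicing machinery were read in 5 lists, and the shares over all tested genes set beside them were not matched for level. Among the kinases, phosphatases and transport factors of SR proteins, 3 of 21 tested genes were lower (14.3%) and 1 higher (4.76%), beside 11.2% lower and 9.22% higher over all tested genes. SRPK1, a main SR protein kinase, had the lowest log2 fold change of them, -0.90 (SE 0.05, edgeR adjusted p = 2.56e-06). It was at 94.6 and 89.8 CPM in shELOVL5, against 172 and 173 CPM in shNC. PPP1R8, a nuclear inhibitor subunit of protein phosphatase 1, fell by 0.30 and the export cofactor NXT1 fell by 0.48 on the log2 scale, while the phosphatase 1 catalytic subunit PPP1CA rose by 0.21. Among 36 other hnRNP and SR-like genes, 8 were lower (22.2%) and 2 higher (5.56%), beside 11.2% and 9.22% of all tested genes. With total counts only the split was 5 and 5, while all tested genes were 1674 lower and 1933 higher. PCBP2, a KH-domain protein also called hnRNP E2, was at 421 and 429 CPM in shELOVL5, against 559 and 572 CPM in shNC (log2 fold change -0.41), and RBMX, also called hnRNP G, fell by 0.38 on the log2 scale. LUC7L2, a U1 snRNP-associated protein, fell by 0.32, and PNN, a speckle protein, rose by 0.33.

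Of 57 core spliceosome genes, 9 were higher and 9 lower (15.8% each, beside 9.22% and 11.2% of all tested genes). With total counts only they were 11 higher and 4 lower, while all tested genes were 1933 higher and 1674 lower. SNRPB, a shared Sm protein, was at 319 and 327 CPM in shELOVL5, against 488 and 458 CPM in shNC (log2 fold change -0.55, edgeR adjusted p = 1.49e-05). SNRPD3, another Sm protein, rose by 0.37 on the log2 scale, SNRNP27 of the tri-snRNP rose by 0.55, and CRNKL1 fell by 0.38. Of 37 other splicing regulators 5 were lower (13.5%) and 3 higher (8.11%), beside 11.2% and 9.22% of all tested genes. NONO, a paraspeckle protein, was at 502 and 519 CPM in shELOVL5, against 759 and 722 CPM in shNC (log2 fold change -0.54, adjusted p = 8.99e-06). TIA1 fell by 0.38 on the log2 scale and the helicase DDX39A fell by 0.22, and RBM25 rose by 0.30. Of 24 exon junction and decay genes 5 were lower (20.8%) and 4 higher (16.7%), beside the same 11.2% and 9.22%. ETF1, which ends translation at stop codons, fell by 0.69 on the log2 scale, while its partner GSPT1 rose by 0.24, the decay kinase SMG1 by 0.27 and the exon junction protein RBM8A by 0.24. Median log2 fold changes of the lists lay between -0.04 and 0.0062, beside -0.17 for the SRSF genes, -0.05 for the HNRNP genes and 0.0062 for all tested genes.

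The list counts moved with the library left out. Over all tested genes too, fewer passed in each direction whichever library was left out than with all 4 libraries. Without shELOVL5 replicate 1, higher and lower genes were 1 and 4 in the hnRNP and SR-like list, 0 and 1 among kinases and transport genes, 3 and 4 in the core list, 1 and 4 among other regulators and 2 and 2 among exon junction and decay genes. Without shELOVL5 replicate 2 they were, in the same order of lists, 1 and 5, 0 and 4, 5 and 3, 1 and 3, and 4 and 2. Without shNC replicate 1 they were 2 and 4, 1 and 3, 11 and 5, 3 and 4, and 5 and 5. Without shNC replicate 2 they were 2 and 6, 1 and 2, 7 and 6, 2 and 6, and 4 and 3.

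**Figure D4:**
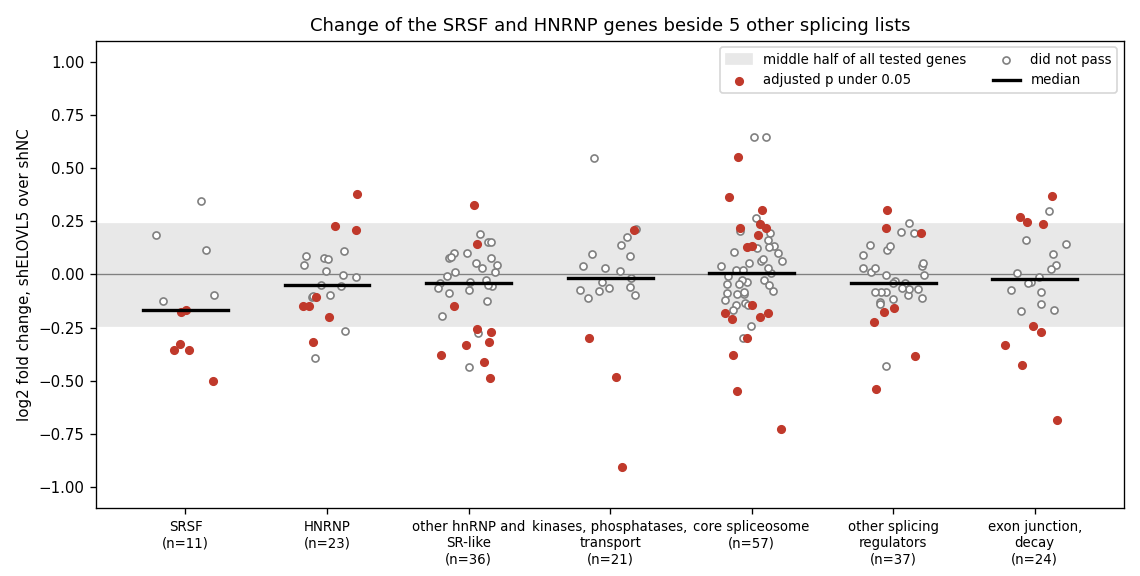
Log2 fold change, shELOVL5 over shNC, of each tested SRSF and HNRNP gene and of the genes in 5 other splicing lists; filled points passed the edgeR test at an adjusted p of 0.05, bars are medians and the grey band holds all tested genes between the quartiles at -0.24 and 0.24. The SRSF median of -0.17 is the lowest of those drawn, and the lowest single point, at -0.90, is SRPK1.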

How the data were processed

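The authors deposited raw read counts, without normalization, for each gene in 4 libraries. Per the labels' protocols, RNA was extracted with TRIzol and libraries were made with an Illumina TruSeq RNA kit. Per the submitters' processing notes, HISAT2 2.2.0, StringTie (version not given) and build hg38 were used, without role or order. How alignments became counts, whether strand was used and which annotation release served are not given in these sources. Symbols came from a gene name table that matched 56105 of 64252 identifiers. Gene types, positions, exon lengths and coding sequences came from GENCODE 29 (GRCh38), and promoters from RefSeq (GRCh38.p14).

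Groups and replicate numbers came from titles. The libraries of a pair differed by more than counting noise (chi-square per degree of freedom 5.51 for shELOVL5 and 5.93 for shNC), so they were not treated as repeat deposits of 1 library. Counts were tested with edgeR 4.0.16 in R 4.3.3: filterByExpr with a minimum count of 10, TMM scaling, glmQLFit with robust=TRUE and the two-sided quasi-likelihood test with group as the only term, Benjamini-Hochberg adjusted over 17461 genes, with a threshold of 0.05. Each log2 fold change sets shELOVL5 over shNC, SE is the fold change over the root of F, and CPM are TMM-scaled. The fit was also run on simulated counts with the same dispersion for every gene. That checks the steps and not the calls reported here. The alternatives were RLE size factors, total counts, no low-count filter, 1 CPM in 2 libraries, DESeq2 1.42.0, limma-voom (limma 3.58.1), robust=FALSE, a replicate block and each library left out; summing a member with the genes sharing its exons was added after seeing the data. It was done for the 16 members that share exons with a gene of at least 10 mean counts. Members and lists were chosen with earlier results of these data known. All members are named, with up to 4 called genes of at least 5 CPM and the smallest p from each list. No amino acid sequences were used here. Intervals for counts of 0 cover counting error only.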

Additional observations from a re-analysis of the deposited data

How the results depend on the processing

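HNRNPF, HNRNPH2, SRSF2, SRSF3 and SRSF6 passed under all 13 alternatives and SRSF7 and HNRNPA0 under 12; SRSF1 passed under 11, HNRNPC and HNRNPH3 under 9, HNRNPUL1 under 8, HNRNPUL2 under 7, HNRNPA1 under 6 and SRSF4 under 5. The setting that summed overlapping genes left the counts of HNRNPA0, HNRNPA1, HNRNPC, HNRNPF, SRSF3, SRSF6 and SRSF7 unchanged, so for them it was no separate check. For SRSF2 it tested the sum with MFSD11, whose log2 fold change was -0.18. With 2 libraries per group the spread rests on few degrees of freedom, and genes near the threshold changed sides most often. When 1 library was left out, the lone library was assumed to vary like the other group.

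With total counts only, all tested genes were 1933 higher and 1674 lower, against 1610 and 1952 with TMM scaling. HNRNP genes were then 6 higher and 2 lower, hnRNP and SR-like genes 5 and 5, core genes 4 lower, and the HNRNP sum ratio was 0.998. With no low-count filter, 899 of all genes were higher and 1344 lower. HNRNP genes were then 1 higher and 2 lower, hnRNP and SR-like genes 1 and 5, core genes 4 lower, other regulators 1 higher and decay genes 3 lower. Core genes lower were 5 with robust=FALSE, and other regulators higher were 1 with DESeq2 and 1 with limma-voom. SRSF genes higher were 1 with DESeq2, limma-voom and robust=FALSE.

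Leaving out 1 library gave 696 to 1347 higher and 1176 to 1616 lower genes among all those tested, 0 to 2 higher and 4 to 6 lower SRSF genes and 1 to 4 higher and 1 to 7 lower HNRNP genes. The lists gave 1 to 2 higher and 4 to 6 lower (hnRNP and SR-like), 0 to 1 and 1 to 4 (kinases and transport), 3 to 11 and 3 to 6 (core), 1 to 3 and 3 to 6 (other regulators) and 2 to 5 and 2 to 5 (decay).

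The SRSF9 log2 fold change of 0.35 was -0.014 when SRSF9 was summed with GATC. Other members whose sign turned had not passed with all 4 libraries: with total counts HNRNPR was at 0.024 and HNRNPDL at 0.034, and with the 1 CPM filter HNRNPDL was at 0.0024. Over the libraries left out in turn, HNRNPA3 ranged between -0.015 (without shNC replicate 2) and 0.096, HNRNPH1 between -0.0039 (without shNC replicate 2) and 0.030, HNRNPR between -0.066 and 0.034 (without shNC replicate 1), HNRNPDL between -0.081 and 0.072 (without shNC replicate 1), and HNRNPUL2-BSCL2 between -0.25 (without shELOVL5 replicate 1) and 0.39. The cause was not tested.

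The labels do not say whether libraries with the same replicate number were made together. Deviations of same-numbered libraries correlated at -0.0148 over 17461 genes, and with 2 libraries per group this value cannot settle it. With the number as a replicate block, 1551 genes were higher and 1902 lower, SRSF genes were 1 higher, which was SRSF9, and 6 lower, HNRNP genes 3 and 5, and HNRNPDL turned to 0.00044.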
